A study of Mus musculus with 4 samples.

Results

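The miR-143/miR-145 cluster is a pair of miRNAs, mmu-miR-143 and mmu-miR-145, which were taken here by name from the mouse assays of the TaqMan cards, without the passenger strands that carry a star. They are 2 of the 517 mouse miRNAs assayed, and both lie on card A with 1 well each. MiRNA levels were measured in 4 samples of bronchoalveolar stem cells (BASCs), 2 control and 2 depleted of c-Myc. The cells came from lungs of ICR mice of 4 to 6 weeks, were sorted as CD31 and CD45 negative and CD34 and Sca1 positive, and were plated on irradiated mouse embryonic fibroblasts. The methods describe passages on such fibroblasts, and the paper elsewhere describes collagen-coated dishes. The sources used here do not say which held the profiled cells. Depletion was by a lentiviral shRNA against c-Myc followed by puromycin, which gave stable lines that had survived selection, and the paper names the controls wild type but also describes a negative control vector. Which shRNA the profiled lines carried is not given in the sources used here. Nothing in the labels says that replicates were separate cultures, so p-values measure the spread between these samples alone. c-Myc mRNA is not on the cards.

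MiR-143 and miR-145 are cut from a shared primary transcript. In the mouse annotation GRCm38.p6 their genes, Mir143 and Mir145a, follow each other with no other gene starting between them, inside the long non-coding RNA gene Carmn, which is also listed as Mir143hg. The cluster is best known from vascular and visceral smooth muscle, where serum response factor and myocardin drive it, and it is abundant in fibroblasts and other mesenchymal cells. miR-143 is known to repress Mapk7 (ERK5). miR-145 is known to repress Klf4, Sox2, Pou5f1 and Myc itself, and its level is often low in tumours.

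The clusters miR-199a-3p/miR-214 and miR-221/miR-222, which are also abundant in mesenchymal cells, were chosen for comparison after their values were seen, and miR-31 is the miRNA whose values followed miR-145 most closely. Their mature sequences are shown because these miRNAs are set against miR-143 and miR-145 in the results. They are RefSeq sequences of GRCm38.p6, matched to the assays by their current names (miR-214-3p, miR-221-3p, miR-222-3p and miR-31-5p), with the seed, bases 2 to 8, in capitals. miR-221 and miR-222 share a seed, and miR-199a-3p and miR-214 do not.
miR-199a-3p: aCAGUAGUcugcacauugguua
miR-214: aCAGCAGGcacagacaggcagu
miR-221: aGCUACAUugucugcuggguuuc
miR-222: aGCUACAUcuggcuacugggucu
miR-31: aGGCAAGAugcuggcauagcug

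Both members were strongly expressed, and neither changed past the test when c-Myc was depleted. The threshold cycle (CT) is the PCR cycle at which a well crosses a fixed signal, so low values stand for abundant RNA and each cycle counts as 1 on the log2 scale. Control replicate 1 gave a CT of 24.98 for miR-145 and control replicate 2 one of 24.88, against 24.99 in depleted replicate 1 and 24.83 in depleted replicate 2. The 4 values spanned 0.165 cycles, and the groups overlapped. For miR-143 the controls gave CT 27.01 (replicate 1) and 26.96 (replicate 2), and depletion gave 26.62 and 26.96. Depleted replicate 1 had the lowest CT, that is, the most miR-143, and the other 3 samples lay close together. In bulk RNA of this kind, fewer cells with a miRNA and less of it per cell cannot be told apart.

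**Figure D1:**
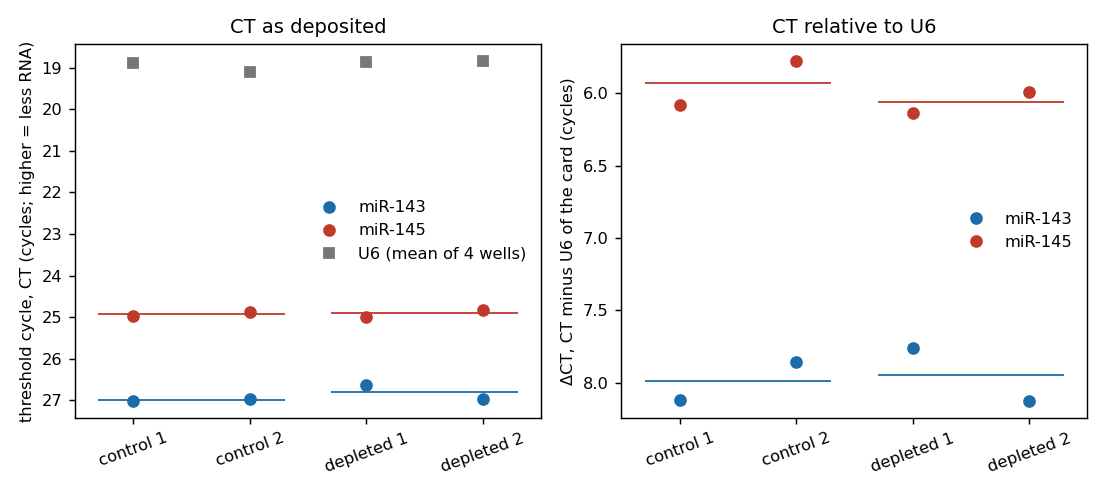
Threshold cycles of miR-143, miR-145 and U6 on card A (left, cycles, axis turned so that higher levels are at the top) and the CT after subtraction of U6 (right, ΔCT, cycles), for each of the 4 samples. Points are samples and lines are group means; the groups overlap for both members, and miR-145 stays between CT 24.83 and 24.99.

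Relative to U6, the small nuclear RNA that the study used as internal control, the ΔCT (CT less the average of the card's 4 U6 wells) of miR-145 was 6.08 in control replicate 1, 5.78 in control replicate 2, 6.13 in depleted replicate 1 and 5.99 in depleted replicate 2. Controls averaged 5.93 ± 0.215 and depleted samples 6.06 ± 0.101 (SD, n = 2 each). The log2 change, depleted minus control level, was -0.13 (standard error 0.17, 95% interval -0.62 to 0.36, adjusted p = 0.593 from limma). That interval runs from a 1.54-fold fall to a 1.28-fold rise, so a 2-fold change in either direction lies outside it with U6 as reference.

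The ΔCT of miR-143 was 8.12 in control replicate 1, 7.85 in control replicate 2, 7.76 in depleted replicate 1 and 8.13 in depleted replicate 2. Each depleted sample lay just outside the range of the controls, one on either side. The group means were 7.99 ± 0.186 (SD, n = 2) and 7.94 ± 0.257 (SD, n = 2), a log2 change of 0.04 (standard error 0.20, 95% interval -0.54 to 0.63, adjusted p = 0.865 from limma), that is, from a 1.46-fold fall to a 1.55-fold rise. Without control replicate 1, and also without depleted replicate 1, this change turned negative (-0.09 and -0.14), and that of miR-145 turned positive without control replicate 2 (0.020).

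Of the 80 mouse miRNAs tested, those with a ΔCT below 10 in at least 1 sample, limma called 26 at an adjusted p below 0.05, which is 32.5%. Higher levels made up 20 of these calls (25.0% of those tested) and lower levels 6 (7.50%). Neither member was among the 26. A miRNA past the filter in 1 group alone was also counted, such as miR-34c (called higher) and miR-126-3p (the 1 lower call on card A). With ΔCT below 10 required in all samples, 17 of 55 were called, 14 higher and 3 lower. Whether the calls hold without 1 of the depleted samples cannot be read from such a fit. There the standard error pooled over miRNAs was 0.99, and the lone sample is assumed to vary like the controls. In size, 12 of the 80 miRNAs changed less than miR-145, and 2 changed less than miR-143. On card A, where both members lie, 20 of 64 tested miRNAs were called higher and 1 lower, and the median log2 change was 0.23. miR-143 lay 0.18 below that median (difference -0.18) and miR-145 0.36 below it (difference -0.36), differences that any reference RNA of the card leaves as they are.

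**Figure D2:**
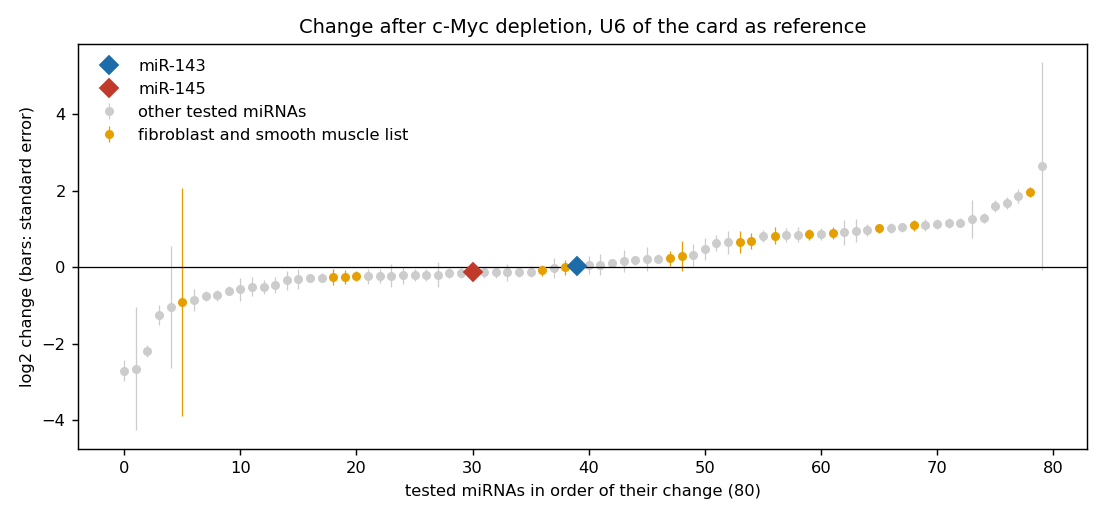
Log2 change after c-Myc depletion of the 80 tested miRNAs in order of size, with U6 of the card as reference; bars are limma's standard errors. Orange points are the tested miRNAs of a list typical of fibroblasts and smooth muscle, and the diamonds mark miR-143 (0.04) and miR-145 (-0.13), which lie near 0 while several orange points lie near 1.

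The direction of both members depended on the reference RNA. Before any reference was subtracted, the mean level changed by 0.19 cycles for miR-143 and by 0.02 for miR-145. On card A the control RNAs themselves moved unequally after depletion, in cycles towards higher levels. U6, with 4 wells, moved by 0.15, snoRNA202 by -0.17, Y1 by 0.36, snoRNA135 by 1.07 and U87 by 1.14. All but U6 had 1 well each there. On card B, with 4 wells each, snoRNA135 moved by -0.017, snoRNA202 by 1.001, U6 by 0.722, U87 by 0.534 and Y1 by 0.402. The order of snoRNA135 and snoRNA202 was thus reversed between the cards. With snoRNA202 alone the log2 changes of miR-143 and miR-145 were 0.37 and 0.19, neither past the test. With Y1 they were -0.17 and -0.34, and with the median CT of the miRNAs over both cards -0.35 and -0.52, also not past it. With U87 both were called lower, at -0.94 for miR-143 (adjusted p = 0.0364 from limma) and -1.12 for miR-145 (adjusted p = 0.0291 from limma). With U87 most calls went that way: 30 of 80 miRNAs (37.5%) were called, 29 of them lower (36.2%). snoRNA135 alone also put both lower, at -0.88 and -1.06 (adjusted p = 0.0124 and 0.00989 from limma), among 38 calls (47.5%), of which 30 were lower (37.5%). The calls of both members with U87 and snoRNA135 thus rest on 1 reference well per sample. The card A changes of these 2 references also lie near 1 cycle, as do those of a group of miRNAs described below. The split of calls was 20 higher and 6 lower with U6, 28 and 10 with snoRNA202, 12 and 6 with snoRNA135 and snoRNA202 together, 12 and 2 with U6 of both cards, 2 and 2 with Y1, and 0 and 4 with quantile normalization.

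**Figure D3:**
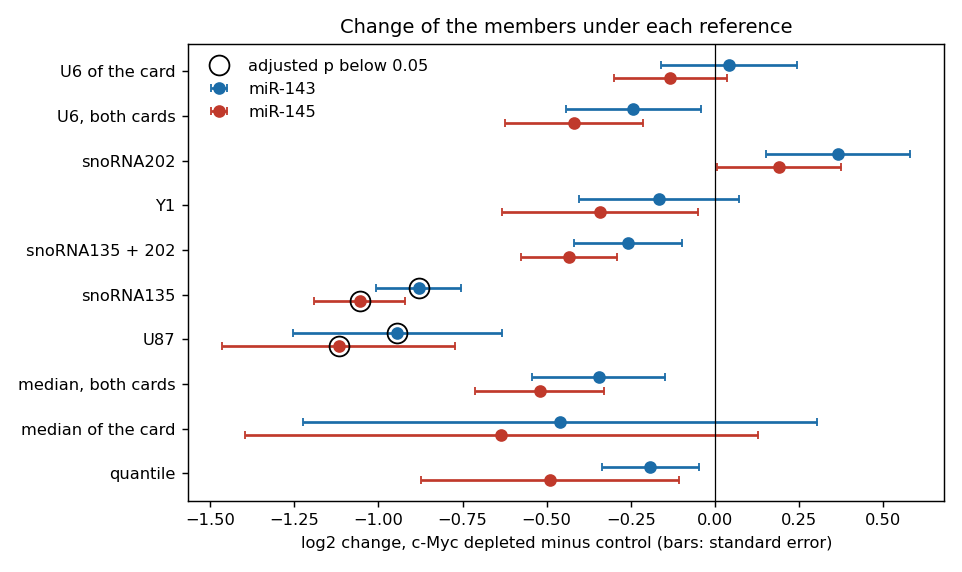
Log2 change of miR-143 and miR-145 after c-Myc depletion with each reference; bars are limma's standard errors and open circles mark an adjusted p below 0.05. The values run from -0.94 to 0.37 for miR-143 and from -1.12 to 0.19 for miR-145, and only snoRNA135 and U87 among the references shown give a call.

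The balance between the members needs no reference, because both were read on the same card. miR-143 crossed the threshold later than miR-145, by 2.04 cycles in control replicate 1, 2.08 in control replicate 2, 1.63 in depleted replicate 1 and 2.14 in depleted replicate 2. Depleted replicate 1 had the smallest gap and depleted replicate 2 the largest. The gap averaged 2.06 ± 0.0288 cycles for controls against 1.88 ± 0.359 for depleted samples (SD, n = 2 each), so that miR-143 changed by 0.18 more than miR-145 on the log2 scale (standard error 0.25). An exact two-sided permutation test over samples gave p = 1, and with 2 against 2 samples it cannot go below 0.333. Without depleted replicate 1 the difference was -0.078.

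By ΔCT, miR-145 ranked 10 (control replicate 1), 6 (control replicate 2), 15 (depleted replicate 1) and 8 (depleted replicate 2) among the 517 mouse assays. In the same order miR-143 ranked 27, 28, 27 and 30. Assays can differ in PCR efficiency, so such ranks between miRNAs are approximate. The neighbour of miR-145 in the order of mean ΔCT was miR-31 (6.01 against 5.99), a difference smaller than the spread between replicates. With the formula of the study's methods, the copies per cell of miR-145 were 1479 ± 67.1 in control and 1500 ± 121 in depleted BASCs (SD, n = 2 each), and those of miR-143 were 358 ± 9.13 and 412 ± 68.4 (SD, n = 2 each). The copies rest on CT alone, without U6. The formula assumes the same fixed amount of total RNA in every cell and was estimated with a synthetic miRNA, so the copies are approximate. The passenger strand assay mmu-miR-145* had 2 wells on card B and gave a CT in 0 of its 8 readings.

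The pattern over the 4 samples was compared by the root mean square difference of ΔCT after each miRNA was centred on its own mean, among the 189 mouse miRNAs with a CT below 35 in all samples. The closest to miR-145 were miR-31 (0.0471 cycles), miR-27a (0.0626) and miR-92a (0.0655), against a median of 0.424 over all 188 others. The ΔCT of miR-31 was 6.07, 5.87, 6.10 and 6.00 in the order control replicates 1 and 2 and depleted replicates 1 and 2, nearly that of miR-145 in each sample. The closest to miR-143 were miR-467a* (0.0815 cycles), miR-10a (0.0875) and let-7g (0.0975), against a median of 0.386. miR-467a* was read on card B and the others on card A. The members were not each other's nearest: at 0.200 cycles, miR-145 ranked 40 from miR-143, and miR-143 ranked 43 from miR-145. These distances rest on 4 samples. Within each sample all miRNAs of a card have the same U6 average subtracted. miRNAs of card A with a nearly flat CT therefore share a pattern through U6, which limits what their closeness shows.

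Fixed pairs of miRNAs from shared or neighbouring precursors give a scale for the agreement of miR-143 and miR-145. For 12 such pairs both partners were on card A with a CT below 35 in all samples, and the difference between the log2 changes of partners ranged from 0.12 to 1.07. The pair miR-143/miR-145 had the second smallest difference, 0.18, between miR-17/miR-20a with 0.12 and miR-199a-3p/miR-214 with 0.20. The SD of its gap within groups, 0.254, was larger than its difference. Among the 4 pairs with the smallest differences, miR-143/miR-145 was the one with both changes near 0. In the others the changes lay between 0.69 and 1.17. The pairs with the largest differences had 1 partner near 0 and the other near 1. These were miR-30b/miR-30d (-0.21 and 0.86), miR-106b/miR-93 (1.14 and 0.07) and miR-29a/miR-29b (-0.25 and 0.78). The rank of a pair thus depended in part on the grouping of CT changes near 0 and 1 cycle described below. Shared regulation was not tested. The CT values of miR-17, miR-20a and miR-214 in both depleted samples carry 8 decimals, whereas those of miR-143, miR-145, miR-199a-3p, miR-221 and miR-222 carry at most 6.

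**Figure D4:**
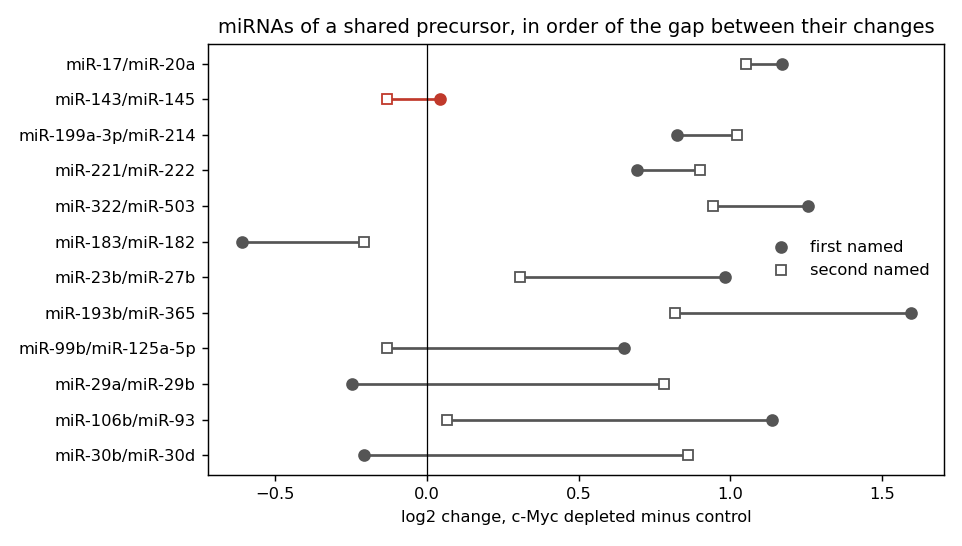
Log2 change after c-Myc depletion of the partners in 12 pairs from shared or neighbouring precursors, U6 of the card as reference, ordered by the gap between partners. Filled circles are the miRNA named first and open squares the one named second; miR-143/miR-145 (red) has a gap of 0.18 and straddles 0.

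Relative to miR-143 and miR-145, the pairs miR-199a-3p with miR-214 and miR-221 with miR-222 had more RNA in each depleted sample than in either control. miR-199a-3p had control CT values of 25.97 and 25.72 against 24.78 and 24.97 with c-Myc depleted, so each depleted sample held more of it. miR-222 had control CT values of 25.96 and 25.95 against 24.86 and 24.95, again with no overlap. With U6, miR-222 rose by 0.90 (adjusted p = 0.0224 from limma) and miR-214 by 1.02 (adjusted p = 0.0115 from limma), while miR-199a-3p (0.82, adjusted p = 0.0722 from limma) and miR-221 (0.69, adjusted p = 0.0970 from limma) did not pass. These 4 values shift with the reference RNA as those of the members do, so the clusters were also compared within each sample. The other arm of the miR-199a hairpins, miR-199a-5p, is not in that comparison. Its CT was 28.5 in control replicate 1, at the ceiling of 35 in control replicate 2 and depleted replicate 1, and 30.04 in depleted replicate 2. With U6 it stood at -0.90 on the log2 scale, with a standard error of 2.97 by limma and an adjusted p of 0.832, and the replicates of each group disagreed.

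The mean level of miR-199a-3p and miR-214 minus that of miR-143 and miR-145, on the log2 scale, was 0.02 in control replicate 1, -0.09 in control replicate 2, 0.95 in depleted replicate 1 and 0.92 in depleted replicate 2. It averaged 0.93 ± 0.0197 after depletion against -0.03 ± 0.0745 in controls (SD, n = 2 each), a difference of 0.97 (standard error 0.054). For miR-221 and miR-222 the same measure was -0.97 and -1.03 for control replicates, then -0.09 and -0.23 with c-Myc depleted, a difference of 0.84 (standard error 0.078). The groups did not overlap for either cluster, and each difference is larger than the spread between replicates. The exact two-sided permutation test gave p = 0.333 for each, the smallest it allows. With 1 sample left out at a time the differences ranged from 0.91 to 1.02 and from 0.77 to 0.91. Both clusters were chosen after their values were seen, so the lack of overlap, the test and these ranges are not independent support. Other miRNAs of the list described next went both ways. With U6, miR-31, miR-10a, miR-24, miR-29a and miR-21 stood at -0.08, 0.001, -0.23, -0.25 and -0.25. miR-125b-5p and miR-152 stood at 1.10 and 0.86.

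A list of 26 miRNAs typical of fibroblasts and smooth muscle, with miR-143 and miR-145 among them, had 25 on the cards, each detected below CT 35 somewhere and 23 of them throughout. Of the 18 that were tested, 5 rose (miR-125b-5p, miR-152, miR-214, miR-222 and miR-34c, with log2 changes from 0.86 to 1.97) and 0 fell by limma, where 7 had an unadjusted p below 0.05. That is 27.8% called higher, beside 25.0% of all 80 tested. On card A, which holds 17 of the 18, it was 29.4% of the list beside 31.3% of all 64 tested there, so the share was near the background. The median log2 change of the list on card A was 0.24, beside 0.23 over all 64. miR-34c, with the highest of these changes, passed the filter through its depleted samples alone (ΔCT 9.83 and 9.86, against 11.75 and 11.88 in controls), and 4 of the list were called with ΔCT below 10 required in all samples. With either one of the depleted samples left out, limma's pooled standard error was 0.99, so whether these calls hold cannot be read from such a fit. Of the 5, miR-34c is better known as a target of p53 and from ciliated cells than from fibroblasts. With U87 as reference 1 of the 18 rose and 7 fell, and with snoRNA135 alone 2 rose and 7 fell. With Y1 it was 1 higher and 0 lower, and with quantile normalization or the median CT as reference 0 were called. The most abundant of the list were miR-24 and miR-29a, at -0.23 and -0.25 (adjusted p = 0.302 and 0.411 from limma), followed by miR-125b-5p and miR-145. The list was drawn up with earlier results on these samples known, and of its called members miR-125b-5p, miR-214 and miR-34c have depleted CT values with 8 decimals.

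Among the markers of other cell types, the blood miRNA miR-155 was abundant, with a mean ΔCT of 7.01 against 7.96 for miR-143 and 5.99 for miR-145, and the others were scarcer than both members. As a share of the summed level of all mouse miRNAs (2 to the power of minus ΔCT, assays taken as equally efficient), the fibroblast and smooth muscle list made up 37.7% and 37.4% for controls, against 35.1% and 34.97% with c-Myc depleted. Within the list miR-24 and miR-29a weighed most (mean ΔCT 3.95 and 3.99), so the share does not measure how many cells were mesenchymal. The epithelial list, with the miR-200 family, which is abundant in epithelium, made up 0.292% and 0.196%, against 0.170% and 0.141%. Of its 10 miRNAs 8 had a CT below 35 in some sample and 3 in all. The 3 were miR-182, miR-183 and miR-200c, with a mean ΔCT of 9.90, 13.72 and 14.66. The most abundant, miR-182, was the 1 tested, and its log2 change with U6 was -0.21 (adjusted p = 0.417 from limma). miR-183 and miR-200c stood at -0.61 and -0.34 and were not tested. miR-203 and miR-205 were at the ceiling of 35 throughout. miR-200a had control CT values of 31.8 and 33.0 and reached the ceiling in both depleted samples. Of 6 striated muscle miRNAs, 2 were detected in any sample, and miR-1, miR-133b, miR-208 and miR-499 in none. The endothelial miR-126-3p had a ΔCT of 9.92 and 9.72 for controls, against 11.87 and 12.13 with c-Myc depleted. It passed the filter through the controls alone, so no test is given for it, though it is counted among the 6 lower calls. Its depleted CT values carry 8 decimals. The other endothelial miRNA, miR-126-5p, was near the ceiling, with a CT of 33.42 and 33.97 for controls against 34.76 and 33.96 with c-Myc depleted. Its groups overlapped by CT, and its log2 change with U6 (-0.82) was not tested. The blood list made up 1.32% and 1.33%, against 1.03% and 1.06%, nearly all from miR-155. Apart from miR-182, the epithelial list was thus scarce in cells labelled bronchoalveolar stem cells. By immunostaining, the paper reports surfactant protein C and the Clara cell marker CCA in most colonies of its passaged cells. It also reports their differentiation into Clara-like and alveolar-like cells. The cards do not measure these proteins. Fibroblasts such as those of a feeder layer are known to carry miR-143 and miR-145, and their part in these values was not tested.

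The CT values of the cards were not spread evenly between whole cycles, which bears on how the small changes of miR-143 and miR-145 are read. On card A, the share of mouse wells below CT 35 whose CT lay in the last 0.1 cycles before a whole number was 52.6% for control replicate 1, 51.7% for control replicate 2, 42.7% for depleted replicate 1 and 58.9% for depleted replicate 2. For miR-145 the values 24.98 and 24.99 lay there, and 24.88 and 24.83 just before. For miR-143 the values 26.96 in control replicate 2 and 26.96 in depleted replicate 2 lay there, while depleted replicate 1, at 26.62, did not. Before the reference was subtracted, 26 of the 64 tested miRNAs on card A changed by -0.25 to 0.25 cycles, miR-143 and miR-145 among them, 5 by 0.25 to 0.75 and 18 by 0.75 to 1.25. The members were thus in the group of changes near 0. On the same scale miR-199a-3p changed by 0.97 cycles, miR-214 by 1.17, miR-221 by 0.84 and miR-222 by 1.05, all in the group near 1 cycle. The within-sample differences of 0.97 and 0.84 between these clusters and miR-143/miR-145 are therefore differences between the group near 0 and the group near 1. The part that this unevenness had in the results was not tested.

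**Figure D5:**
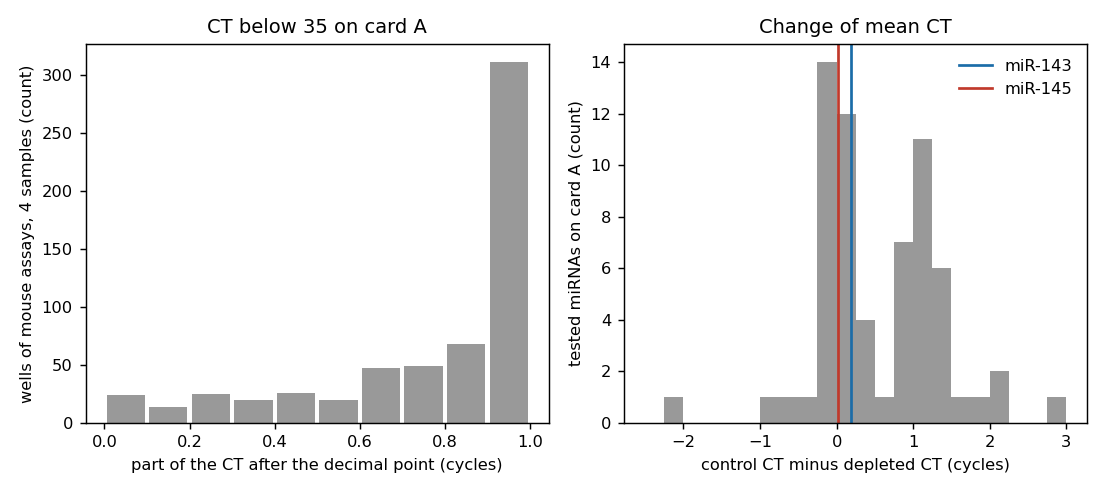
Left, the part after the decimal point of each CT below 35 on card A (cycles), over the mouse wells of the 4 samples. Right, the change of mean CT of the 64 tested card A miRNAs before any reference (cycles, control minus depleted), with lines at miR-143 (0.19) and miR-145 (0.02); the values form a group near 0 with 26 miRNAs within 0.25 cycles and another near 1.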

How the data were processed

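MiRNA levels were measured with TaqMan Rodent MicroRNA Array cards A and B, 384 wells each. The authors deposited 1 table of CT values, which is a score in PCR cycles with no normalization applied, read out by RQ manager software; Partek 6.4 is named in the submitters' processing notes for later steps. Groups came from the sample labels.

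A ceiling of 35 replaced higher or missing CT values and the U6 average of the card was subtracted, as the paper's methods describe, after repeat wells of an assay had been averaged. limma 3.58.1 (R 4.3.3) was fitted to minus ΔCT of 80 mouse miRNAs with a lowest ΔCT below 10, with Benjamini-Hochberg adjustment, and was tested on simulated data. The within-sample gaps were tested with scipy 1.17.1. Tables used Python 3.11.15, numpy 2.4.6 and pandas 2.3.3, and figures matplotlib 3.10.9. The copy number formula of the study is 10 raised to (40 - CT)/3.34, over 22. The alternatives were other reference RNAs, median and quantile scaling, other ceilings and filters, a variance trend, the study's one-way analysis of variance per miRNA, a replicate block and leaving out each sample. Precision is limited by 2 samples a group, by 1 well per member and, on card A, by 1 well for each control RNA other than U6.

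The members, lists and pairs were chosen with earlier results of these data known. Named miRNAs were the members, the 3 nearest to each in pattern, partner pairs with a small gap, up to 4 of the most abundant of each list, and the called members of the mesenchymal list. The latter, the comparison with miR-199a-3p/miR-214 and miR-221/miR-222, the spread of CT between whole cycles, and snoRNA135 and snoRNA202 alone as references were chosen after values were seen. So was the crossed pairing used as a block, and its count of calls is no independent support. Annotation of GRCm38.p6 served only for names and neighbours. Pairs with a partner not analysed here or not below CT 35 throughout (5 of 17) were left out.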

Additional observations from a re-analysis of the deposited data

How the results depend on the processing

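The log2 change of miR-143 (0.04 with U6 of the card) turned negative with the median CT of both cards (-0.35) or of the card (-0.46), snoRNA135 and snoRNA202 (-0.26), U87 (-0.94), Y1 (-0.17), U6 of both cards (-0.24), quantile normalization (-0.19) and snoRNA135 alone (-0.88). That of miR-145 (-0.13) turned positive with snoRNA202 alone (0.19) and was called with U87 (-1.12) and snoRNA135 alone (-1.06). The CT ceiling, the miRNA filter, the variance trend and the one-way analysis of variance left both without a call. Without 1 sample, the log2 change of miR-143 ranged from -0.14 to 0.22, that of miR-145 from -0.28 to 0.020, and the difference between them from -0.078 (without depleted replicate 1) to 0.43. Without a depleted sample limma pooled a far larger spread (standard error 0.99), and the lone sample is assumed to vary like the other group. With the median CT of the card limma also pooled a larger spread (standard error 0.76 for both members). Its few calls there therefore do not reflect the change of reference alone. Relative to U6 of the card, the median of the tested miRNAs moved from 0.05 to -0.52 with U87, -0.27 with the median CT of both cards, -0.26 with snoRNA135, -0.18 with the median of the card or with snoRNA135 and snoRNA202, -0.17 with U6 of both cards, -0.09 with Y1 and 0.21 with snoRNA202.

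limma called 26 of 80 miRNAs in the main setting, 3 with the median CT of both cards, 1 with that of the card, 4 with Y1, 14 with U6 of both cards, 4 with quantile normalization, 2 with all 263 detected miRNAs tested, 17 of the 55 with ΔCT below 10 in all samples and, by one-way analysis of variance, 3. The replicate numbers did not pair the samples (correlation of deviations -0.44). With the replicate block 0 were called (26 at an unadjusted p below 0.05), where miR-143 and miR-145 had adjusted p-values of 0.899 and 0.639, and with the crossed pairing as a block 33. Without 1 sample the count ranged from 0 to 25, with 0 and 1 when a depleted sample was left out. Of the mesenchymal list 5 were called in the main setting, 8 with U87, 1 with Y1, 3 with U6 of both cards, 9 with snoRNA135, 8 with snoRNA202, 1 by one-way analysis of variance, and 0 with either median, quantile normalization, all detected miRNAs or the replicate block (5, 0, 7, 8 and 5 at an unadjusted p below 0.05), with a range of 0 to 7 without 1 sample. Why the references moved unequally was not tested. The differences of miR-199a-3p/miR-214 and miR-221/miR-222 from miR-143/miR-145 kept their direction under quantile normalization (0.98 and 0.89).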
